A study of Mus musculus with 6 samples.

Results

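Murine pre-B cells were compared after γ-irradiation and after mock irradiation. The genes followed were the STAT transcription factors Stat2, Stat3, Stat5a, Stat5b and Stat6 and the Janus kinases Jak1, Jak2, Jak3 and Tyk2. These 9 genes, of 18193 on the array, were found on it by their gene names in the annotation of the platform. They were measured by 20 probe sets of 45037, a probe set being a group of short probes that gives 1 signal for a transcript. All cells came from 3 wild-type (WT) pre-B cell lines, derived independently of each other. Every line was transformed with the v-Abl kinase, carried Bcl2, a gene that keeps cells alive, as an Eμ-Bcl2 transgene, and was kept for 48 hours in 3 μM STI-571 (imatinib), which blocks v-Abl and holds the cells in G1 phase. Each line gave 1 array of mock-irradiated cells (0 Gy) and 1 array of cells collected 2 hours after 1 Gy from a cesium source (0.72 Gy per minute), so that 3 arrays were compared with 3. The comparison of the doses asks which genes respond to 1 Gy of γ-rays in cells held in G1 phase. Such radiation can cause double strand breaks and also other DNA lesions, as the study states. The comparison cannot separate them. All 6 arrays are of cells in STI-571 at 1 time point, so that each value below describes transformed lines with a blocked v-Abl kinase and not primary pre-B cells.

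JAK kinases are bound to the inner parts of cytokine receptors and phosphorylate each other, the receptor and STAT proteins when a cytokine arrives. Phosphorylated STAT proteins pair, enter the nucleus and bind DNA until SOCS proteins, PIAS proteins and phosphatases end the signal. In pre-B cells the best known route runs from interleukin-7 through Jak1 and Jak3 to the 2 Stat5 proteins, and Stat5 is also known to be phosphorylated in cells transformed by Abl kinases. The arrays measure mRNA, so that no value below is a measure of phosphorylation or of DNA binding.

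A pre-B identity was checked first. All 9 pre-B markers that were measured, of 11 listed, reached a signal of 100 on every array. Their summed signal was 100500 to 106100 at 0 Gy and 79350 to 107300 at 1 Gy. Rag1 signals of lines 1, 2 and 3 were 13330, 18770 and 18210 at 0 Gy and 4507, 5674 and 4526 at 1 Gy. Rag2 and Cd79a were also lower in every line, Pax5 and Vpreb1 were higher in every line, and the others were mixed. None of 7 T cell, 4 erythroid or 5 stromal markers measured reached 100 on any array. Of 7 myeloid markers only Itgam did, and the sum over the list was 273.5 to 349.4 at 0 Gy and 375.9 to 482 at 1 Gy. Of 4 plasma cell markers Irf4, Prdm1 and Sdc1 reached 100 and Jchain did not. Their sum was 11120 to 12450 at 0 Gy and 19680 to 23280 at 1 Gy, most of it from Irf4. Irf4 was higher in every line, Sdc1 and Jchain were lower in every line, and Prdm1 was mixed. The part of these genes in the results below was not tested. As a measure of RNA quality, the beta-actin probes gave a 3' to 5' ratio of 1.45 ± 0.051 (SD, n = 3) at 0 Gy and of 1.32 ± 0.057 at 1 Gy. The exact two-sided permutation test gave p = 0.1, and 3 arrays per dose cannot give a smaller one. For Gapdh the ratio was 0.82 ± 0.071 at 0 Gy and 0.793 ± 0.0077 at 1 Gy (exact permutation test p = 0.9). In bulk RNA, fewer cells that make a transcript and less transcript per cell cannot be told apart.

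Stat6 rose about as much on both of its probe sets, Stat5a and Stat5b were lower after 1 Gy in every line, and no other member was called between the doses in any fit. Signals are linear values scaled by the authors to the same trimmed mean on every array, and differences are log2 values of 1 Gy minus 0 Gy tested with limma. A difference was called where p, adjusted over the 21762 probe sets with a signal of 100 or above on at least 1 array, was under 0.05. Of the 20 probe sets of the members, 17 could be tested, and these covered all 9 genes. The dose fit called 2 of the 17 higher, where 1.93% of all tested probe sets were called higher, and 0 lower, where 2.55% of all were called lower. At an unadjusted p under 0.05 limma gave 2 higher (9.28% of all) and 5 lower (13.7% of all). A second fit kept the 2 arrays of each line together as a block, and it called the same number higher, 2 (6.78% of all), and 3 lower (11.5% of all). The 3 were 1 probe set each of Stat5a and Stat5b and a dim one of Stat5a that passed the filter through 1 mock array alone. The median log2 difference was 0.18 over the 17 probe sets and -0.06 over all that were tested.

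**Figure D1:**
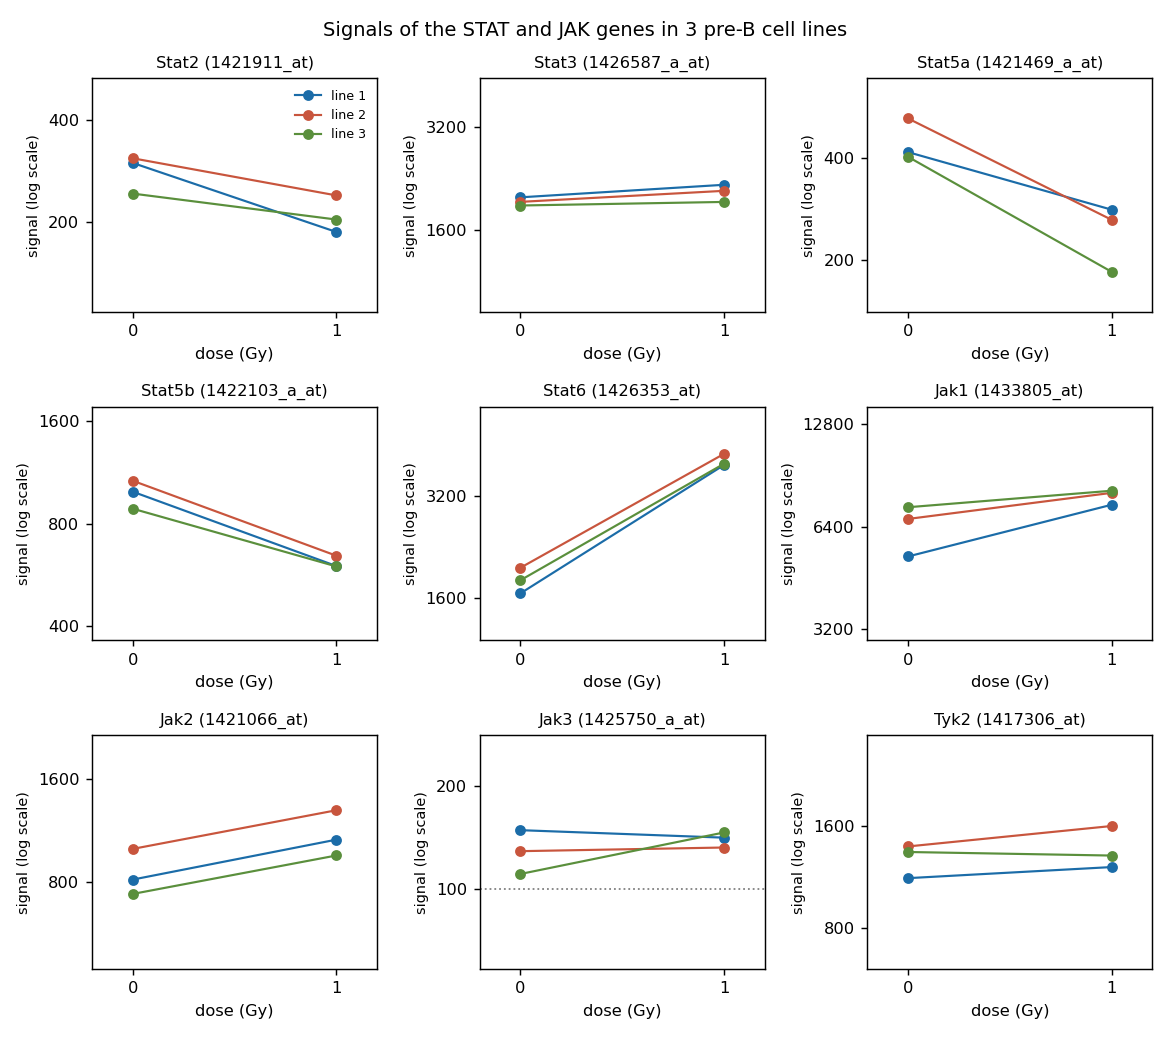
Signal of each of the 9 genes by dose, 1 panel per gene for its brightest probe set, on log scales that span the same ratio. Each point is 1 array and each line joins the 0 Gy and 1 Gy arrays of 1 cell line; the dotted line marks a signal of 100. Stat6 rises in all 3 lines from signals of 1655.1 to 1967.7 to signals of 3942 to 4249.7, Stat5a, Stat5b and Stat2 slope downwards in all 3, and Jak3 and Tyk2 do not slope the same way in every line.

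The sequence before the annotated start of transcription is shown for Stat6, which was called in both fits. It is also shown for Stat5a, Stat5b and Stat2, the genes that were lower in every line. A promoter is where transcription factors of this and other pathways can bind. Each window holds the 250 bases before a start in RefSeq (build GRCm38.p6), written 5′ to 3′ on the strand of the gene. Capitals in the Stat2 window mark matches to a motif, and capitals in the Stat5a and Stat5b windows mark bases that are identical in a stretch the windows share.
Stat6, chr10:127642736-127642985, plus strand: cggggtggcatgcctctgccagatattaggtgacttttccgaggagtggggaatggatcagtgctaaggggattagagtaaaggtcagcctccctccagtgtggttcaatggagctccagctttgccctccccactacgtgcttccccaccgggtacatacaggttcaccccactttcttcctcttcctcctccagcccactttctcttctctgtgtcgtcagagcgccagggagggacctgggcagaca
Stat5a, chr11:100860234-100860483, plus strand: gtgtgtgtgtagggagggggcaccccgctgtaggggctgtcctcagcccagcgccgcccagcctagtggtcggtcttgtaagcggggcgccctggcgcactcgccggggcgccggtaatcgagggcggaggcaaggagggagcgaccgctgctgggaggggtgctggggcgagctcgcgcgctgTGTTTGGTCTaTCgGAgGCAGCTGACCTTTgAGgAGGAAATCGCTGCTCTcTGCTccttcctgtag
Stat5b, chr11:100822571-100822820, minus strand: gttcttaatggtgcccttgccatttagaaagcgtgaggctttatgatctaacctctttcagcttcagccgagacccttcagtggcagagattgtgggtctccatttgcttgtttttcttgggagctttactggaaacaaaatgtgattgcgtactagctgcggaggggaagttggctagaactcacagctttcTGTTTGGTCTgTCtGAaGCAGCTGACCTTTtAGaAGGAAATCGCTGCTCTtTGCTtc
Stat2, chr10:128270248-128270497, plus strand: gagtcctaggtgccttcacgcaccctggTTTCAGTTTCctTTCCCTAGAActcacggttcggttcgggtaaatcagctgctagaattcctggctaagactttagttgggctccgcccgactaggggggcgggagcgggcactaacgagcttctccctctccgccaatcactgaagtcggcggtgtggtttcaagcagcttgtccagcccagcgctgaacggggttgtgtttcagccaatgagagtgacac

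Stat5b, Stat5a and Stat3 follow each other on chromosome 11 with no other protein-coding gene listed between them. The windows of Stat5a and Stat5b share a stretch of 55 bases without gaps, of which 49 (89.1%) are identical. It ends 12 bases before the start of Stat5a and 3 bases before the start of Stat5b. Over their 250 bases, the windows shown hold 21 CpG sites and 68% G or C for Stat5a and 5 CpG sites and 46.4% for Stat5b. Both genes have a second annotated start, whose window is not shown, with 5 CpG sites and 57.6% for Stat5a and 40 CpG sites and 82% for Stat5b, so that neither gene has the higher count in both. The Stat6 window holds 6 CpG sites, which is the median of all windows, and 56.8% G or C, where the median of all windows was 52.4%.

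Motifs were searched on both strands in all 11 windows of the 9 genes and in all 32851 windows of the annotation. TTCNNNGAA, the spacing that most STAT proteins bind, was in 0 of the 11 and in 7.02% of all windows. The same ends with 4 bases between them (TTC and GAA), the wider spacing that Stat6 binds, were in 5.85% of all windows and, among the members, in that of Stat2 alone, from base -210 to base -201. A pair of GAAA with 2 bases between them, the core of the element bound by Stat2 together with Irf9, was in 2.98% of all windows and again in that of Stat2, on the opposite strand, from base -222 to base -213. These matches do not overlap. The NF-κB consensus was in 0 of the 11 windows and in 5.0% of all. A match describes letters in a window, and no binding was measured.

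Stat6, which carries the signals of interleukin-4 and interleukin-13, had 2 probe sets, and both were called. On probe set 1426353_at the signals of lines 1, 2 and 3 were 1655.1, 1967.7 and 1808.4 at 0 Gy and 3942, 4249.7 and 3975.2 at 1 Gy. All irradiated arrays lay far above all mock arrays, and the 3 lines lay close together at each dose. The mean rose from 1810 ± 156 to 4056 ± 169 (SD, n = 3), and the mean log2 values rose 2.24-fold, a log2 difference of 1.17 (standard error 0.13, limma adjusted p = 0.0202). On probe set 1421708_a_at the signals were 493.09, 502.27 and 459.97 at 0 Gy and 1160.2, 1180.2 and 1232.9 at 1 Gy. Here too the groups were apart, and the log2 difference was 1.30 (standard error 0.12, limma adjusted p = 0.0138), a 2.46-fold rise. By line, the log2 differences were 1.25, 1.11 and 1.14 on the first probe set and 1.23, 1.23 and 1.42 on the second. With no filter on low signals, limma gave adjusted p of 0.146 and 0.118, and leaving out any 1 array or any 1 line gave adjusted p of 0.0619 to 0.247 and of 0.0537 to 0.246, so that Stat6 was then not called. The log2 difference stayed between 1.10 and 1.23 and between 1.23 and 1.36 over the 20 alternatives tried.

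Among 9677 other genes, those whose log2 signals over the 6 arrays were most like those of Stat6 were Cd274 (Pearson r = 0.9974), Myo1g (0.9948) and Acot9 (0.9946). Cd274 encodes the ligand PD-L1, Myo1g a membrane myosin of blood cells and Acot9 an acyl-CoA thioesterase. Their log2 differences after 1 Gy were 1.38, 2.19 and 1.06. An r above 0.95 was reached by 186 genes, and the 6 points share the same 3 lines and the same contrast of doses, so that this is a description of likeness only.

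Stat5a and Stat5b, the paired factors of interleukin-7 signalling in B cell precursors, were lower after 1 Gy in 3 of 3 lines on each of their tested probe sets. Stat5a probe set 1421469_a_at gave 415.48, 521.64 and 402.5 at 0 Gy and 281.56, 262.94 and 185.02 at 1 Gy. No irradiated array reached the lowest mock array, and the third line was the lowest at both doses. The means were 446.5 ± 65.4 and 243.2 ± 51.2, a log2 difference of -0.89 (standard error 0.22). This missed the threshold in the dose fit (limma adjusted p = 0.0778) and passed it with the line as a block (adjusted p = 0.0293).

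The second Stat5a probe set, 1450259_a_at, was dim, with 133.07, 85.858 and 82.354 at 0 Gy and 64.279, 59.802 and 39.765 at 1 Gy. It passed the filter through the mock array of line 1 alone, so that the filter favoured a fall after 1 Gy. The log2 difference was -0.87 (standard error 0.28, limma adjusted p = 0.137, and 0.0318 with the block). With signals under 100 set to 100 it was -0.14.

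Stat5b probe set 1422103_a_at gave 992.31, 1068.5 and 884.7 at 0 Gy and 600.3, 643.74 and 598.81 at 1 Gy. The groups were apart, and the 3 irradiated arrays lay within a narrow range. The means were 981.8 ± 92.3 and 614.3 ± 25.5, a log2 difference of -0.67 (standard error 0.14), close to the threshold in the dose fit (limma adjusted p = 0.054) and past it with the block (adjusted p = 0.0278). It was called in 5 of 20 alternatives. Among the 5 was the methods' test at its own thresholds, where a call rests on unadjusted p. Adjusted p ran from 0.0278 to 0.303 over all 20. It was 0.281 with no filter, 0.0632 with quantile normalization, 0.1 with a common median and 0.108 to 0.303 with an array or a line left out. A second Stat5b probe set, 1422102_a_at, stayed under 100 on all 6 arrays and was not tested, and its lines went different ways (-0.79, 0.33 and 2.00 on the log2 scale).

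Stat2, the STAT of the type I interferon receptor that works with Irf9, was lower in 3 of 3 lines on both probe sets and was not called in either fit. Probe set 1421911_at gave 298.91, 308.47 and 243 at 0 Gy and 187.45, 239.99 and 203.89 at 1 Gy. The lowest mock array and the highest irradiated array almost met. The log2 difference was -0.43 (standard error 0.17, limma adjusted p = 0.205, and 0.0981 with the block). Probe set 1450403_at gave 225.71, 261.37 and 205.06 at 0 Gy and 174.32, 158.38 and 149.37 at 1 Gy, with a log2 difference of -0.52 (standard error 0.15, limma adjusted p = 0.119, and 0.0594 with the block).

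Stat3, the main factor of the interleukin-6 family, had a log2 difference of 0.09 on its brightest probe set, 1426587_a_at, with a 95% interval of -0.22 to 0.39 (limma adjusted p = 0.733). Its signals were 1992.3, 1932.2 and 1885.3 at 0 Gy and 2168.6, 2081.8 and 1931.4 at 1 Gy, and the groups overlapped. On probe set 1460700_at the irradiated arrays (1443.4, 1414.6 and 1448.9) all lay above the mock arrays (1208.4, 1283.5 and 1167.7). The log2 difference there was 0.24 (standard error 0.12), which was not called (limma adjusted p = 0.316). The dimmer probe set 1459961_a_at differed by 0.30, -0.61 and 0.85 on the log2 scale in lines 1, 2 and 3, and a further one, 1424272_at, stayed under 100 on all arrays. The neighbours Stat5b, Stat5a and Stat3 thus did not share 1 direction, with log2 differences of -0.67, -0.89 and 0.09 on their brightest probe sets, and the difference between them was not tested.

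**Figure D2:**
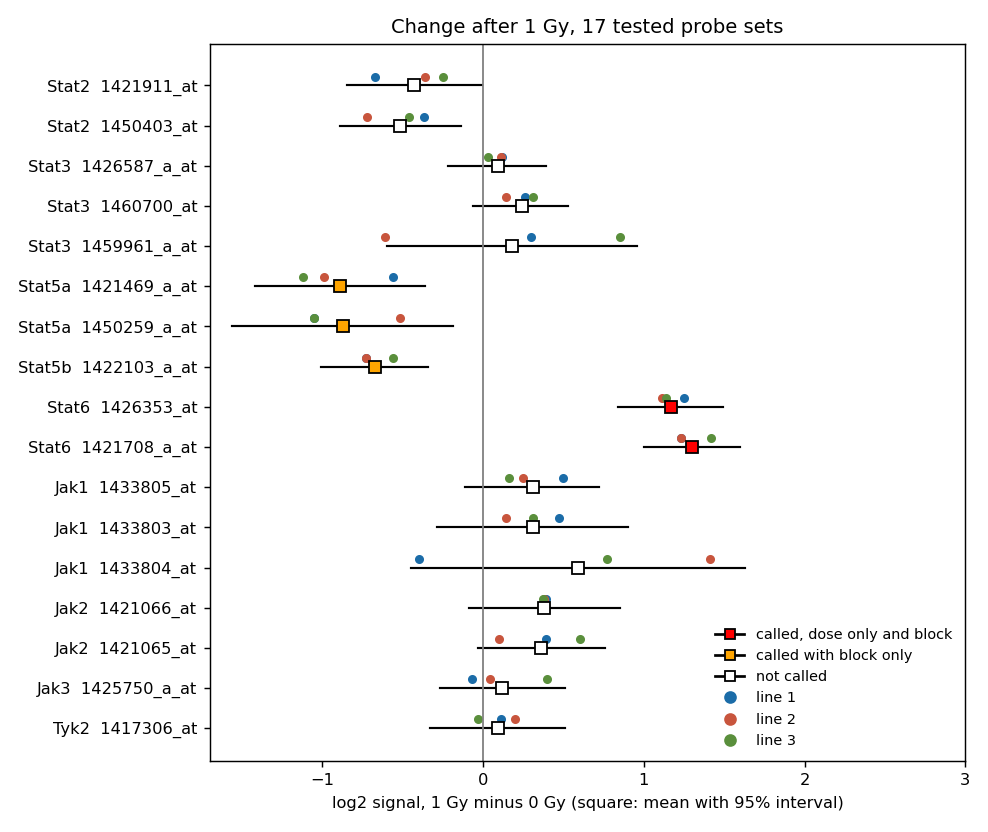
Change of each of the 17 tested probe sets after 1 Gy, as log2 signal at 1 Gy minus 0 Gy; squares are means of 3 lines with 95% intervals from the dose fit, and points are the single lines. The intervals of Stat6 (0.84 to 1.49 and 1.00 to 1.60) lie wholly right of 0, and those of Stat5a, Stat5b and Stat2 lie wholly left of it. The intervals are not adjusted for the number of probe sets tested, and the dose fit called only the Stat6 probe sets. The interval of Jak1 probe set 1433804_at (-0.45 to 1.63) is the widest.

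The Janus kinases gave 7 tested probe sets, of which limma called 0 in either fit, and the lowest adjusted p among them was 0.0786 (Jak2, with the block). Jak1, which serves receptors of interleukins and interferons, was measured on 3 of them. Probe set 1433805_at gave 5230.3, 6739.8 and 7294.8 at 0 Gy and 7419.4, 8040.2 and 8155.3 at 1 Gy. The groups were apart by a small margin, and the log2 difference was 0.31 (standard error 0.17, limma adjusted p = 0.351). Probe set 1433803_at was also 0.31 higher (standard error 0.24, limma adjusted p = 0.517), from 3147 ± 737 to 3859 ± 720, with overlapping groups. On 1433804_at the lines went different ways (-0.40, 1.41 and 0.77).

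Jak2, the kinase of the erythropoietin receptor and of the shared beta chain of the GM-CSF receptor, had nearly equal log2 differences in the 3 lines on probe set 1421066_at. They were 0.39, 0.38 and 0.37, from 811.99, 998.99 and 736.97 at 0 Gy to 1063.6, 1297.3 and 955.66 at 1 Gy. The groups overlapped because line 2 was high at both doses, and the mean of 0.38 (standard error 0.19) was not called without the block (limma adjusted p = 0.301) or with it. Probe set 1421065_at gave 327.64, 411.28 and 298.83 at 0 Gy and 430.65, 441.65 and 452.25 at 1 Gy, a log2 difference of 0.36 (standard error 0.16, limma adjusted p = 0.253).

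Jak3, which binds the common gamma chain, was dim, with 148.63, 128.97 and 110.55 at 0 Gy and 141.29, 132.2 and 146.36 at 1 Gy. Its log2 difference was 0.12 with a 95% interval of -0.27 to 0.51. A further 2 probe sets that the annotation gives to Jak3 and its neighbour Insl3 together were left out. Tyk2, the kinase of the type I interferon and interleukin-12 receptors, gave 1122.4, 1390.4 and 1339.3 at 0 Gy and 1209.7, 1596.4 and 1307.5 at 1 Gy. Its log2 difference was 0.09 with a 95% interval of -0.33 to 0.51, and its second probe set, 1432576_at, stayed under 100.

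Counted without a test, all irradiated arrays lay above all mock arrays on 5 of the 17 probe sets (12.8% of all tested) and below them on 5 (17.1% of all), and the doses overlapped on 7. The 5 higher were both of Stat6 and 1 each of Stat3, Jak1 and Jak2, and the 5 lower were those of Stat2, Stat5a and Stat5b, with the dim Stat5a probe set among them. In the direction of the lines, 8 were higher in 3 of 3 lines (24.7% of all), 5 lower in 3 of 3 (34.6% of all) and 4 were mixed. Per gene, on the brightest probe set, 1 of 9 was called higher (2.11% of 9678 genes) and 0 lower (3.20%), and with the block 1 higher (6.61%) and 2 lower (14.7%).

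Differences between the 3 cell lines were tested in the same way. An F test of the line term in limma called 0 of 17 probe sets, where 8.60% of all tested probe sets were called. At an unadjusted p under 0.05 there were 2. The share of all probe sets at that level was not counted, so that 2 cannot be called few or many. The first was Jak1 probe set 1433803_at, with geometric mean signals of 2729, 3555 and 4161 in lines 1, 2 and 3 (limma adjusted p = 0.135, and 0.0262 with a trend in the variance prior). The second was the dim Stat5a probe set 1450259_a_at (limma adjusted p = 0.168). For Stat6 the line means spanned 1.13-fold and 1.02-fold on its probe sets.

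**Figure D3:**
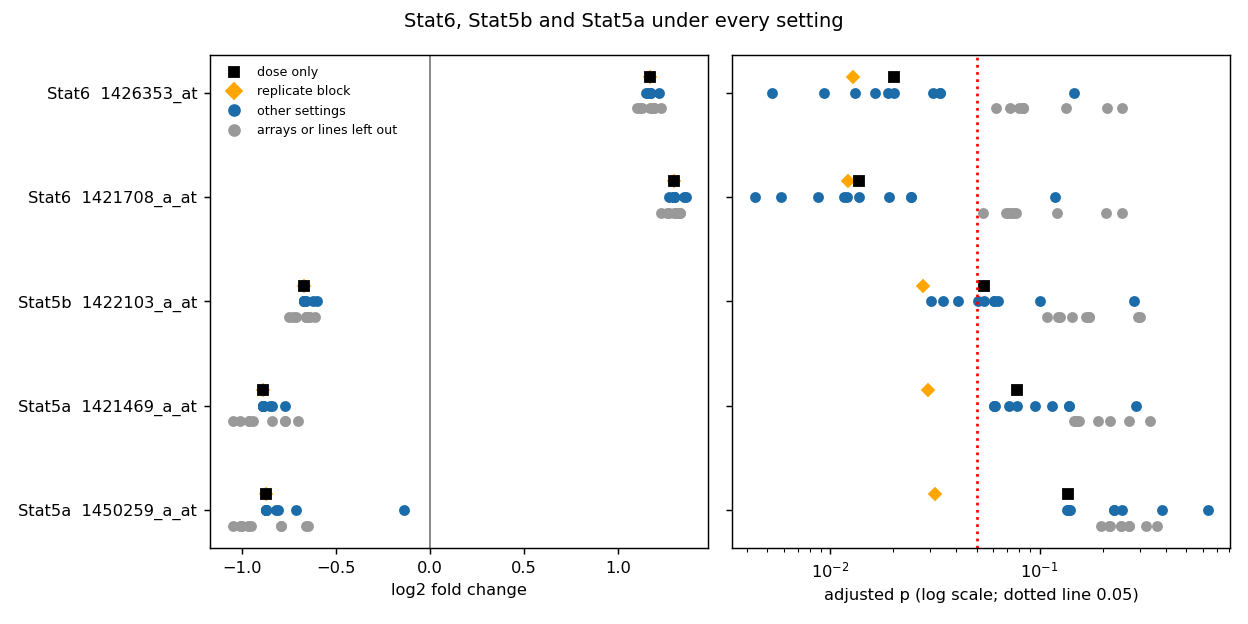
Stat6, Stat5b and Stat5a under each alternative way to process or test the arrays; the left panel gives the log2 fold change and the right panel the adjusted p on a log scale, with a dotted line at 0.05. Black squares are the dose fit, orange diamonds the fit with the replicate block, blue points other settings and grey points fits with an array or a line left out; every grey point lies right of the dotted line.

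The receptors that feed the Janus kinases were examined as a list of 35 genes, of which 31 were on the platform and 20 could be tested. Limma called 4 of them higher (2.11% of all genes) and 0 lower (3.20% of all), and the median log2 difference was 0.28, where it was -0.11 over all 9678 genes. At an unadjusted p under 0.05 there were 6 higher (8.36% of all genes) and 2 lower (16.7% of all). The 4 were Il21r, a receptor of the common gamma chain family, Ifnar1 and Ifnar2, which form the type I interferon receptor, and Ifngr2, a chain of the interferon-γ receptor. Il21r rose from 165.5 ± 48.7 to 804.9 ± 69.7 (log2 difference 2.33, limma adjusted p = 0.0188). Ifnar2 rose from 1120 ± 132 to 2829 ± 389 (1.33, adjusted p = 0.0247), Ifnar1 from 1296 ± 64.1 to 2491 ± 175 (0.94, adjusted p = 0.0279) and Ifngr2 from 1341 ± 140 to 2573 ± 345 (0.94, adjusted p = 0.0398).

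The partner chain Ifngr1 was not called (log2 difference 0.41, limma adjusted p = 0.252). Il4ra, the receptor chain that recruits Stat6, went from 217.4 ± 91.1 to 362.9 ± 31.7 and was not called either (0.84, adjusted p = 0.238). Il7r, the receptor chain upstream of Stat5 in pre-B cells, had 16250 ± 1540 at 0 Gy and 16240 ± 1280 at 1 Gy (adjusted p = 0.999). Il6st, the signalling chain of the interleukin-6 family, had no probe set that could be tested, and Il2rg was not analysed here. With the block 5 receptors were called higher (6.61% of all genes) and 5 lower (14.7% of all). The additions, named after their values were seen, were Il5ra upwards and Lifr, Il15ra, Csf2rb, Il6ra and Csf2rb2 downwards. The last is a near copy of Csf2rb, so that their probes may share signal. Il5ra reached 100 only on irradiated arrays and Lifr only on 1 mock array, so that the filter favoured the direction of both. With signals under 100 set to 100 their log2 differences were 1.23 and -0.56. Csf2rb2 reached 100 on 2 mock arrays and 1 irradiated array, and the same floor moved its log2 difference from -0.66 to -0.24.

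Of the 17 SOCS and PIAS proteins and phosphatases that end JAK and STAT signals, all tested, 2 were called higher and 1 lower (2.11% and 3.20% of all genes), with a median of 0.16. With the block 4 were called higher and 3 lower (6.61% and 14.7% of all), so that the share lower was near that of all genes. Socs1, which binds and blocks Janus kinases, fell from 331.3 ± 43.7 to 57.73 ± 12.4 (log2 difference -2.53, limma adjusted p = 0.0103). Its irradiated arrays were all under 100, and with signals under 100 set to 100 the log2 difference was -1.72. The phosphatase Ptpn1 rose from 3258 ± 283 to 5956 ± 364 (0.87, adjusted p = 0.0341), and the adaptor Sh2b3, also called Lnk, a brake on Jak2 signals, from 2527 ± 308 to 5261 ± 582 (1.06, adjusted p = 0.0325). The calls added by the block, named after their values were seen, were Socs5 and Socs3 upwards and Socs2 and Pias3 downwards. Socs2, which also stands in the list of STAT targets below, had 14970 ± 1790 at 0 Gy and 9203 ± 986 at 1 Gy (-0.70, limma adjusted p = 0.0692, and 0.0304 with the block).

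Of 19 genes known as STAT targets, 16 could be tested, and 4 were called higher and 1 lower (2.11% and 3.20% of all genes), with a median of 0.74. With the block 7 were called higher and 2 lower (6.61% and 14.7% of all), and here too the share lower was near that of all genes. Bcl6, a repressor in B cells, rose from 817.3 ± 138 to 2513 ± 287 (log2 difference 1.63, limma adjusted p = 0.0188). Junb, a subunit of AP-1, rose from 537.9 ± 71.7 to 1670 ± 456 (1.61, adjusted p = 0.0291). The kinase Pim1 rose from 5249 ± 1000 to 15270 ± 3680 (1.53, adjusted p = 0.0333) and the survival factor Bcl2l1 from 1399 ± 128 to 2333 ± 176 (0.74, adjusted p = 0.0482). The gene called lower was Socs1. The calls added upwards by the block, named after their values were seen, were Ccnd2, Bcl3 and Socs3. Ccnd2 had mock signals of 5655.4, 244.17 and 1078.9 and a log2 difference of 3.64 (limma adjusted p = 0.126, and 0.0415 with the block). Bcl3 differed by 2.27 (limma adjusted p = 0.265, and 0.0111 with the block). It reached 100 on 1 mock array, and with signals under 100 set to 100 its log2 difference was 1.6. The targets called lower with the block, Socs1 and Socs2, stand in the list of inhibitors too, and Socs3, Cish and Il4ra also stand in 2 lists. Bcl6 and Pim1 are targets of other pathways as well.

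Of 26 interferon-stimulated genes, the targets of Stat2 and its partners, 25 were on the platform and 12 could be tested. Limma called 0 of them in either direction (2.11% and 3.20% of all genes), with 1 higher and 4 lower at an unadjusted p under 0.05 (8.36% and 16.7% of all) and a median of 0.12. With the block 1 was called higher and 4 lower (6.61% and 14.7% of all). Those were Irf1 upwards and Ifit2, Ddx58, Psmb8 and Psmb9 downwards, named after their values were seen. Ifit2 reached 100 on 2 mock arrays and on no irradiated one, and with signals under 100 set to 100 its log2 difference was -0.49. Irf9, which binds DNA together with Stat2, was not called (log2 difference 0.09, limma adjusted p = 0.79).

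**Figure D4:**
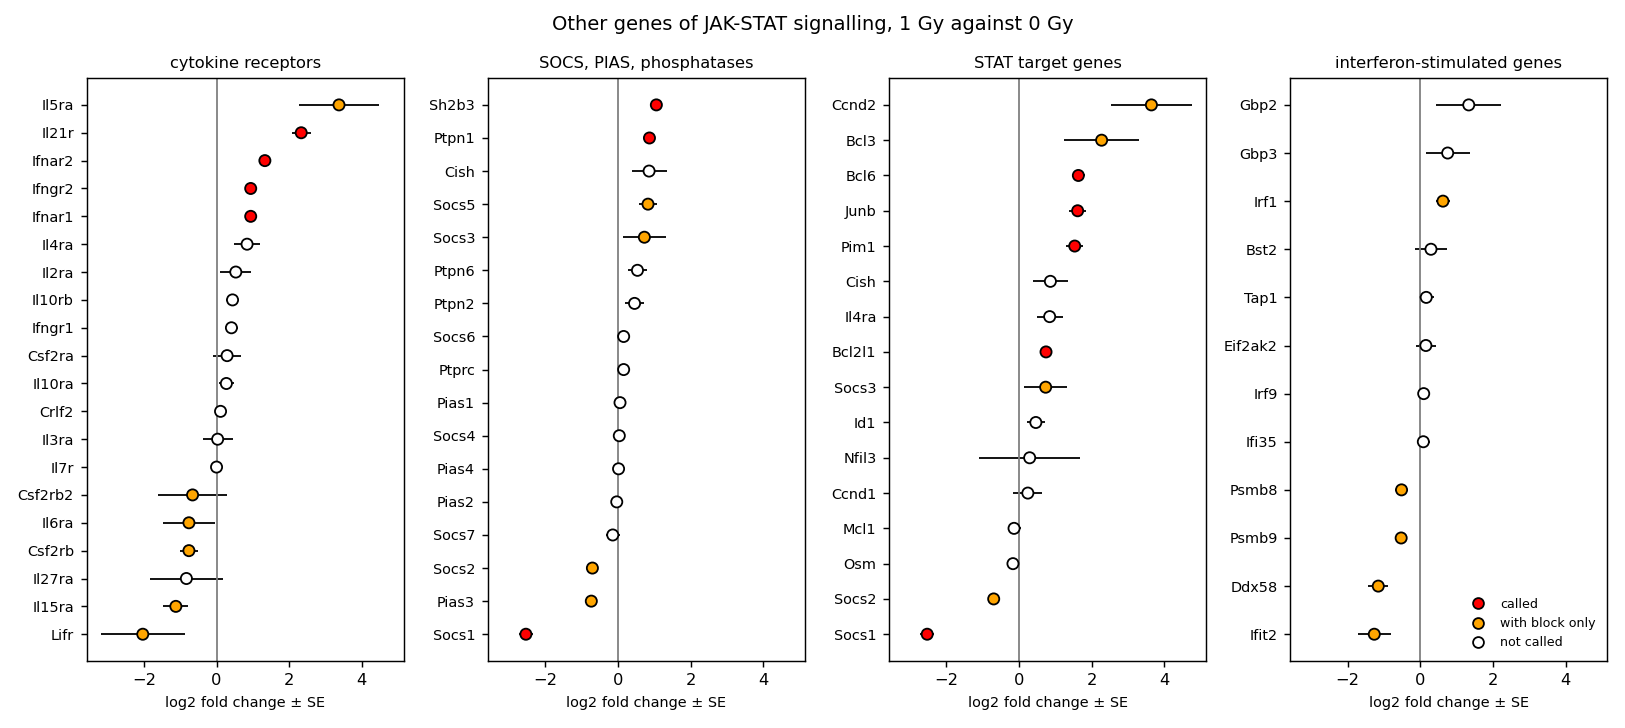
Log2 fold change with standard error of every tested gene of the 4 lists after 1 Gy, from its brightest probe set; red points were called, orange points were called with the cell line as a block only and white points were not called. The interferon receptor chains Ifnar1, Ifnar2 and Ifngr2 are red at 0.94 to 1.33, and no interferon-stimulated gene is red.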

How the data were processed

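Total RNA of 3 pre-B cell lines, mock-irradiated or 2 hours after 1 Gy, was measured on Affymetrix mouse genome arrays. The authors deposited 1 linear intensity value (signal) for each probe set and array. The submitters' processing notes name MAS5, and after trimming 2% at both ends the signals of every array average 500. The study's methods give RMA and quantile normalization, and neither was applied to these values. The labels name the IVT Express kit and the study's methods the One-Cycle protocol for amplification. Precision is limited by the number of arrays; median signals were 51.6 to 59.4, and 41.7% to 43.8% of probe sets reached 100.

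Signals under 1 were set to 1 and log2 values taken. Without the 64 controls there were 45037 probe sets, and 21762 with a signal of at least 100 on any array entered the test. Limma (version 3.58.1, R 4.3.3) was fitted to dose alone, since the methods name no further factor, with Benjamini-Hochberg adjustment. This dose fit leaves out the pairing of the arrays by line, which the block fit described below keeps. Every adjusted p is from limma. Gene names come from the platform annotation: 34945 probe sets have 1 name, 932 have several and 9160 are not listed there. A gene in a list is represented by its brightest tested probe set with 1 name. The text names the 9 members, up to 4 called genes per list and direction and 8 receptors in any case. It also names the 3 genes most like a member called by the dose fit on its brightest probe set. Members and lists were chosen with earlier results of these data known. Other STAT genes are not reported here.

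The design text of the series says that each line gave both doses, so that replicate numbers pair the arrays. Deviations from the group means correlated at 0.668 to 0.781 within the 3 pairs and at -0.495 to -0.0525 between arrays of different numbers. Deviations of 3 arrays from their own mean cancel out, so that the negative values follow in part from the centring. A second fit therefore held the line as a block. Limma p-values of the dose fit rest on the spread among the 3 arrays of a dose. Those of the block fit rest on how much the dose difference varied among the 3 lines. In both, limma also draws on the variances of all tested probe sets. Both fits were tested on simulated data with known changes.

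Alternatives were the block, other filters, scalings and floors, a variance trend, a minimum of 1.5-fold, the methods' test, the mean of a gene's probe sets, and leaving out each array or line. Promoter windows are from RefSeq (GRCm38.p6), as are the gene neighbours.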

Additional observations from a re-analysis of the deposited data

How the results depend on the processing

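Each of the 2 Stat6 probe sets was called in 10 of 20 alternatives, and the direction of Stat6, Stat5a, Stat5b and Stat2 held in every alternative that gave a value. With the replicate block, limma called 3 member probe sets lower, 5 receptors lower, 4 inhibitors higher and 3 lower, 7 STAT targets higher and 2 lower, and 1 interferon-stimulated gene higher and 4 lower. The block changed no other call of a member. With no filter, calls fell to 0 for members and receptors higher and for inhibitors and STAT targets in both directions, and 1 of 45037 probe sets was called; the cause was not tested. With 100 asked on 3 or more arrays, 1 member and 2 inhibitors were called lower. Of all 19642 probe sets then tested, 584 were called higher and 770 lower. Quantile normalization gave 2 inhibitors and 2 targets lower, where 500 of all 21762 probe sets were called higher and 458 lower. With signals under 100 set to 100, 1 member, 3 inhibitors and 2 targets were lower. With a variance trend, 1 member, 3 inhibitors, 2 targets and 1 interferon-stimulated gene were lower, and 1 member differed between lines. The methods' test at its own thresholds (unadjusted) gave 3 members, 2 receptors, 3 inhibitors, 2 targets and 1 interferon-stimulated gene lower and 1 interferon-stimulated gene higher. After Benjamini-Hochberg adjustment it gave 1 receptor, 1 inhibitor and 1 target higher. Leaving out an array or a line gave 0 to 0 calls higher for members, receptors, inhibitors and targets, and 0 to 1 inhibitors and 0 to 1 targets lower. Over all probe sets, those 9 fits, each on fewer arrays, called 0 to 61 higher and 0 to 33 lower, against 419 and 556 on the 6 arrays. Totals were 1475 higher and 2499 lower with the block, 690 and 825 with the variance trend, 366 and 274 with a common median, 635 and 841 with the floor, 1121 and 1729 with the methods' own thresholds and 172 and 180 after their adjustment. Scaling to a common median moved the median of all differences from -0.06 to -0.01.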
